A study of Mus musculus with 18 samples.

Results

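Regions made of repeat sequence were taken from whole-genome bisulfite sequencing (WGBS) of CD11b+ myeloid cells and of CD4+ T cells, both from the spleen. A region was a member if it was autosomal, listed in the table of either cell type, and had at least 90% of its bases repeat-masked, that is in lower case in the mm10 reference genome. There were 6470 members among 411770 listed regions for CD11b+ cells and 10747 among 553467 for CD4+ cells. The choice among listed regions used no methylation value. The lists themselves came from the authors' comparison of methylation between the genotypes, so they are not a sample blind to methylation. The masking does not name the kind of repeat, and the check of the label came from the sequences themselves. Overlapping members of both tables were merged into 15536 loci, and 12603 of these shared sequence with another locus by the criterion given below, while 18.9% stood alone.

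The mice were Dnmt3a+/+ (WT) or Dnmt3a R878H/+ (labelled Dnmt3aR878/+), with 4 young adult mice per genotype and cell type on a C57BL/6 background and the sexes pooled. The R878H mice carried 1 floxed mutant allele switched on by Vav1-iCre, a Cre recombinase expressed in the hematopoietic lineage, so both cell types carried the mutation. The study describes its controls as mice with Cre and no mutant allele, or with the mutant allele and no Cre, without saying which of them entered WGBS. Cells were isolated on magnetic columns, so CD11b+ cells are a mixture of myeloid cells. The study took splenic T cells after removing CD11b+ cells. Whether both cell types came from the same mice is not stated. The mutant CD11b+ group has 6 entries for 4 mice, since replicates 3 and 4 have a pair of entries each. The sample titles carry S numbers of a lower and a higher series, whose meaning is not stated. All mutant CD4+ entries bear the higher series and most WT CD4+ entries the lower one. Series and genotype can therefore hardly be told apart in CD4+ cells. In CD11b+ cells every mouse has an entry of the lower series.

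DNMT3A is a de novo DNA methyltransferase, and R878H is the mouse counterpart of the most frequent DNMT3A substitution in clonal hematopoiesis. Much of the mouse genome consists of transposable elements and their remains, chiefly LINE-1 elements, short SINE elements such as B1, and endogenous retroviruses such as the intracisternal A particles (IAP), whose long terminal repeats (LTRs) act as promoters. In somatic cells most of these copies are kept heavily methylated, and CpG-rich copies are also held by other silencing systems, in which KRAB zinc finger proteins, TRIM28 and SETDB1 take part.

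For each region the tables give the authors' mean methylation of each genotype in percent. Values of single mice and read depths are not in them, so no mean has an error between mice, no difference between the genotypes or between sets of regions could be tested, and the coverage behind a value is unknown. Quartiles below describe the spread over regions, and regions are not replicates of a genotype. The loss of methylation is the WT mean minus the R878H/+ mean, in percentage points. The tables do not name their groups, and the first was read as WT, on which every direction below rests. Reads from near-identical copies are hard to place, and how the authors' mapping treated them is not given in the sources used here.

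Repeats were scarce in the tables. Masked bases made up 33.5% of the sequenced bases of the autosomes and held 24.6% of their CpG dinucleotides, whereas 13.3% of the CpGs in listed CD11b+ regions and 14.1% of those in CD4+ regions were masked. Members were 1.59% and 1.96% of the autosomal regions. They had a median length of 400.5 bp in CD11b+ cells and 464 bp in CD4+ cells, and every base was masked in 3043 and 4708 of them. Each strand's cytosine is counted separately in the tables, and 68.9% and 66.9% of the members held 10 cytosines, the fewest a listed region has.

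The loci were grouped by shared sequence to see which repeats they were. Loci that shared at least 25% of the 16-base words of the shorter one, on either strand, were joined to the locus with most such neighbours. The 6 largest groups held 27.7% of all loci, and the founding locus of each is printed below (up to its first 300 bases, mm10, plus strand), with each CpG in capitals since CpGs are what was measured. The names are read from the letters as background, except that group 3 was also compared with the B1 element annotated by RefSeq, with which its founding locus shared 25.2% of the 16-base words. Groups 1, 2, 4 and 5 have the letters of LINE-1, group 3 those of B1, and group 6 those of an IAP-type LTR. The LINE-1 stretches of groups 1, 2 and 4 show few CpGs and the B1 and LTR stretches many (8 in 161 and 7 in 83 bases). That of group 5 lies between them, with 5 in 147 bases.
Group 1, chr13:101297201-101297500: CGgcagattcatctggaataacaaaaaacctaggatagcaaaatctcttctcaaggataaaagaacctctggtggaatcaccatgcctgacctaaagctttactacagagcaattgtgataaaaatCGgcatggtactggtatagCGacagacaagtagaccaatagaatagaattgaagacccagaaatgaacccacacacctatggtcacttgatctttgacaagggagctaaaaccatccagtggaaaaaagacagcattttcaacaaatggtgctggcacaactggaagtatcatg
Group 2, chr13:74625436-74625735: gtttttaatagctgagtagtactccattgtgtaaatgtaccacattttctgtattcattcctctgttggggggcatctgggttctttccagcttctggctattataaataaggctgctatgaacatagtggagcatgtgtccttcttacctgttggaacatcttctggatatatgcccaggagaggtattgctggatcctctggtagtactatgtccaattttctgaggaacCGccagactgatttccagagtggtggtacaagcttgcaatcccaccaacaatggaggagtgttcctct
Group 3, chr19:37245442-37245602: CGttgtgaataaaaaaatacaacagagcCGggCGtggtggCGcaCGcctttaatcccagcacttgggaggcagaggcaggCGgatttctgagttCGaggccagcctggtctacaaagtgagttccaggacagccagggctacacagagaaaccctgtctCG
Group 4, chr11:46960555-46960854: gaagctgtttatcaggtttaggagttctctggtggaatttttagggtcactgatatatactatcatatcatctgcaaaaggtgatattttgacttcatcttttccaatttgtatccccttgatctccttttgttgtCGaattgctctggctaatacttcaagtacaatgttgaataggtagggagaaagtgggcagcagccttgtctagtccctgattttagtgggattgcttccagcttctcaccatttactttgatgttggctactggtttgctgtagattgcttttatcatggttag
Group 5, chr16:61304928-61305074: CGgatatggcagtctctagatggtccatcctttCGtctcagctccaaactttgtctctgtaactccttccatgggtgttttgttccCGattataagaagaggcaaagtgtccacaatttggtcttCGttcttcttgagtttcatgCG
Group 6, chr4:112695121-112695203: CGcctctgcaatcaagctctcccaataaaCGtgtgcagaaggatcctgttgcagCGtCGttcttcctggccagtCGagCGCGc

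Repeat regions were highly methylated in WT cells and lost a few points in R878H/+ cells. In CD11b+ cells the median of the members was 92.6% in WT (quartiles 87.9% and 95.5%) and 88.4% in R878H/+ cells (quartiles 82.2% and 92.8%), and the median loss was 4.40 points (quartiles 2.23 and 6.38). In CD4+ cells the medians were 92.0% and 86.4%, and the median loss was 5.27 points (quartiles 3.12 and 7.42). R878H/+ cells had the lower mean at 86.0% of the CD11b+ members and 89.8% of the CD4+ members, against 93.5% and 95.5% of all autosomal listed regions. Across those regions the median loss was 6.53 points in CD11b+ and 6.83 in CD4+ cells.

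Large losses were rare in repeats. A loss of more than 20 points was seen in 27 CD11b+ members (0.417%), against a background of 6.94% of all autosomal regions. In CD4+ cells it was seen in 37 members (0.344%), against 6.17%. Autosomal regions with under 10% masked bases, called repeat-poor here, numbered 170286 and 225058, and their median loss was 6.75 points in CD11b+ and 7.00 in CD4+ cells. The members' median loss was therefore lower than that of repeat-poor regions by 2.35 points in CD11b+ cells (a difference of -2.35) and by 1.73 points in CD4+ cells (-1.73). Within classes of equal WT methylation and CpG density the difference was -1.50 and -1.29 points.

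**Figure D1:**
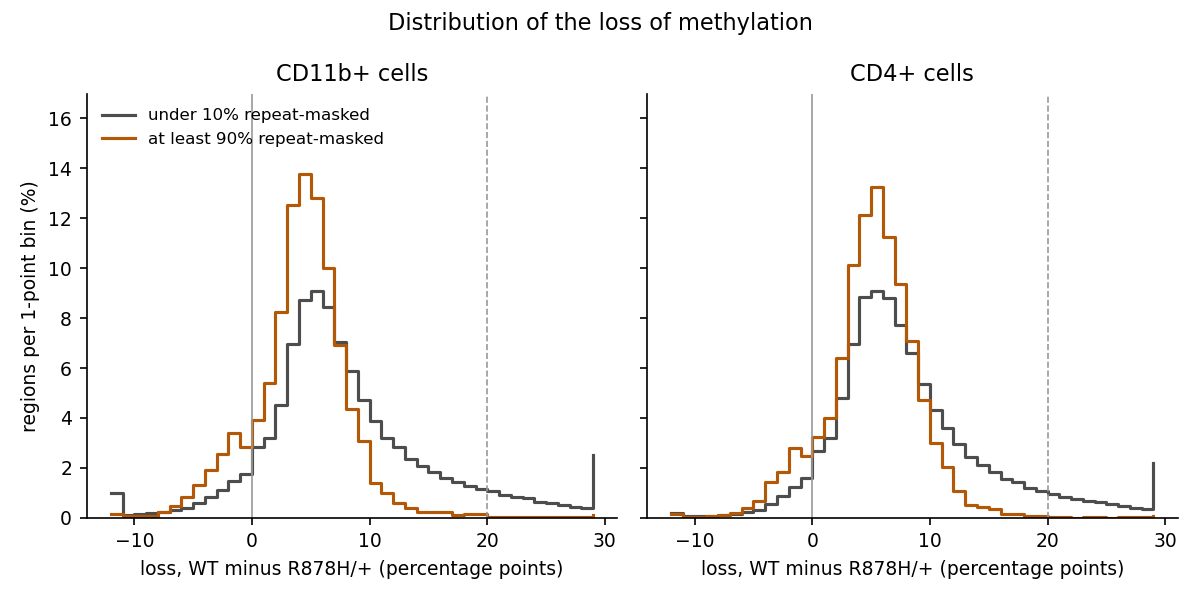
Share of regions (y axis, percent of the set per 1-point bin) by loss of methylation (x axis, WT minus R878H/+ in percentage points) in CD11b+ and CD4+ cells, for regions at least 90% repeat-masked and regions under 10% repeat-masked; the outermost bins collect all values beyond them, and the dashed line marks 20 points. Repeat regions peak near 5 points with almost no regions beyond 20, whereas repeat-poor regions have a long right tail (8.79% and 7.82% beyond 20 points).

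From 10% masked bases upward, the median loss was smaller at each step of the masked share. In CD11b+ cells the median loss was 6.79 points at 10% to 30% masked bases, 6.15 at 30% to 50%, 5.56 at 50% to 70% and 4.93 at 70% to 90%. The corresponding medians in CD4+ cells were 7.09, 6.53, 6.00 and 5.59 points. WT methylation rose slightly over the same classes, from 88.4% to 92.6% in CD11b+ cells. Nothing changed abruptly at the limit of membership. Regions of 85% to 90% masked bases had a median loss of 4.73 points in CD11b+ and 5.50 in CD4+ cells, and those of 90% to 95% had 4.75 and 5.55.

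**Figure D2:**
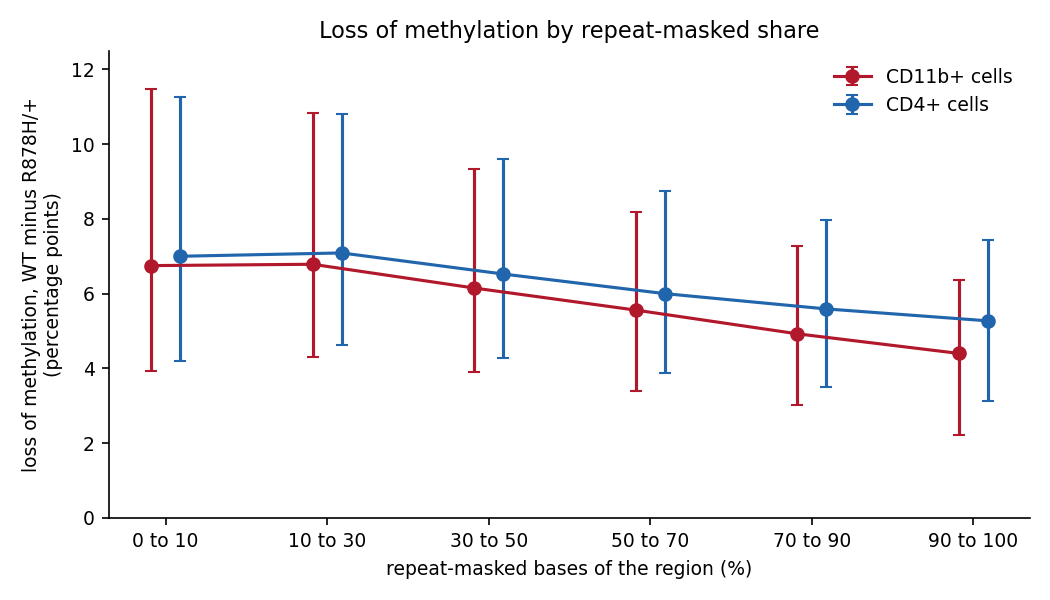
Median loss of methylation (y axis, WT minus R878H/+ in percentage points; bars are the quartiles over regions) by the repeat-masked share of the region (x axis, percent of bases), for CD11b+ and CD4+ cells. The medians differ little between the first 2 classes and then decline, to 4.40 points in CD11b+ and 5.27 in CD4+ cells, and the upper quartile declines more than the lower one.

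CpG density ordered the medians of the repeat regions. Members with under 2 CpGs per 100 bp had a median WT methylation of 89.6% in CD11b+ cells and lost 5.45 points. Those with 2 to 4 CpGs per 100 bp had 93.2% and lost 4.10 points, those with 4 to 6 had 94.9% and lost 3.45, and those with 6 or more had 96.0% and lost 1.70. In CD4+ cells the losses over the same classes were 6.25, 4.67, 3.60 and 1.23 points, while WT methylation went from 89.3% to 96.2%. The share of members with a higher mean in R878H/+ cells rose from 5.31% to 31.8% in CD11b+ cells and from 1.88% to 37.6% in CD4+ cells, against 6.48% and 4.47% of all autosomal regions. Repeat-poor regions rose likewise, from 3.83% to 37.1% and from 2.27% to 25.7%. By these medians, denser classes of repeats were more methylated in WT cells and lost less. This does not hold for each repeat. The few members under 20% in WT (11 and 16) had a median of 37.0 and 28.8 CpGs per 100 bp.

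Repeat-poor regions lost more in every density class. Their median losses were 7.02, 7.04, 5.34 and 1.93 points in CD11b+ cells, and those of CD4+ cells were 7.33, 6.98, 5.37 and 3.00. Among regions with at least 90% methylation in WT cells both sets lay closer together in each class except the densest one in CD11b+ cells, where they lay further apart. There the sparsest class lost 5.05 points if it was repeat and 5.31 if repeat-poor in CD11b+ cells, with 5.46 and 5.64 in CD4+ cells. The densest class lost 1.65 and 2.62 points in CD11b+ cells, with 1.21 and 2.45 in CD4+ cells. The gap was wider for intermediate WT methylation. Members at 60% to 80% in WT lost 6.32 points in CD11b+ and 7.95 in CD4+ cells, whereas repeat-poor regions of that class lost 13.8 and 13.6. That class held 6.49% and 7.41% of the members, against 15.9% and 14.3% of the repeat-poor regions.

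**Figure D3:**
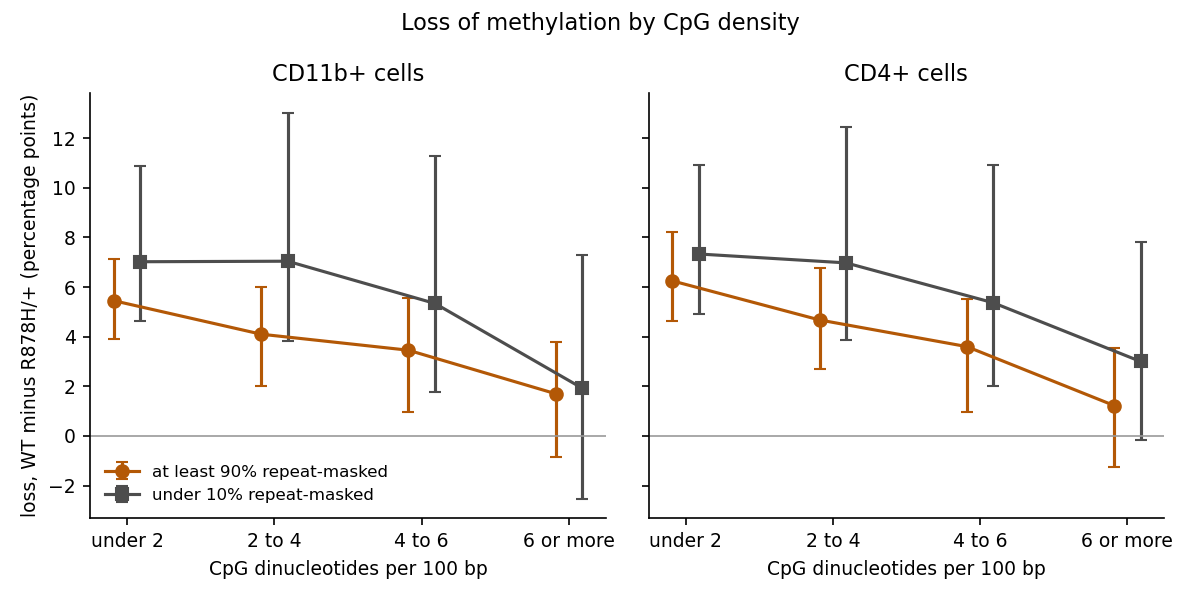
Median loss of methylation (y axis, WT minus R878H/+ in percentage points; bars are the quartiles over regions) by CpG density (x axis, CpG dinucleotides per 100 bp), for repeat regions (circles) and repeat-poor regions (squares) in CD11b+ and CD4+ cells. Repeat regions lie below repeat-poor regions at every density and fall to 1.70 and 1.23 points in the densest class.

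The densest class was partly made of simple repeats. Members of which dustmasker, a program that marks low-complexity sequence, marked at least 50% numbered 387 in CD11b+ and 439 in CD4+ cells. They had a median loss of 1.30 and 0.635 points. Most of them, 330 and 369, fell in the densest class, where their loss was 1.06 and 0.175 points. The other members of that class lost 2.13 points in CD11b+ and 1.55 in CD4+ cells, still less than the other members of any sparser class.

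Groups of related sequence differed in the same way. Of the 8 largest groups, the 4 with the letters of LINE-1 had the lowest WT methylation and the largest losses, and some smaller groups lay beyond them, such as group 30 with a median loss of 7.83 points over 60 CD4+ members. Group 1, with 1840 loci, had a median of 89.7% in WT and 84.4% in R878H/+ CD11b+ cells, with a median loss of 5.33 points over 700 members, and of 89.6% and 83.9% in CD4+ cells, with 5.98 points over 1353 members. Groups 2, 4 and 5 lost 5.24, 5.63 and 5.63 points in CD11b+ cells, and 6.22, 6.29 and 6.88 points in CD4+ cells. In these 4 groups R878H/+ cells had the lower mean at 91.0% to 96.99% of CD11b+ members and 97.7% to 98.8% of CD4+ members. Over all autosomal listed regions it was 93.5% and 95.5%. The CD11b+ shares thus lay on both sides of the general share, and the CD4+ shares a little above it. None of the CD11b+ members of these groups lost more than 20 points, and 1 CD4+ member did, in group 4.

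The B1 group had a higher median methylation and a smaller median loss than the LINE-1 groups. Its WT medians were 94.9% and 95.1%, and its median losses 3.73 points over 263 CD11b+ members and 3.93 over 415 CD4+ members. Losses over 20 points were seen in 4 (1.52%) and 5 (1.20%) of them. This is a larger share than of all members (0.417% and 0.344%), but smaller than the 6.94% and 6.17% of all autosomal regions. It lay within 1 kb of a start, in an exon or in an intron more often than LINE-1, with 47.9% and 50.8% of its members intergenic against 80% and 82.3% of group 1. The LTR groups, group 6 and the smaller group 8, lost 4.27 and 2.50 points in CD11b+ cells, with 4.40 and 1.80 in CD4+ cells. Group 8 had the highest WT methylation of the 8 largest groups, 96.2% and 96.7%. Group 7 is a tandem repeat of CA and CG, and lost 1.20 and 0.425 points.

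Within groups, denser members mostly lost less, but not at each step. B1 members with under 2 CpGs per 100 bp lost 5.18 points in CD11b+ and 5.55 in CD4+ cells, and those with 6 or more lost 2.75 and 1.43, while those with 4 to 6 lost 2.68 and 4.19. Group 15, described below, lost 3.20 points at 4 to 6 CpGs per 100 bp and 3.38 at 6 or more in CD11b+ cells. Group 1 at 2 to 4 CpGs per 100 bp lost 5.01 and 5.08 points, group 3 lost 4.00 and 4.35, group 6 lost 4.93 and 4.48, and group 8 lost 3.25 and 2.34. In this density class these 4 groups differed less than over all their members, and group 8 was the lowest of them. With 6 or more CpGs per 100 bp group 7 (1.03 and 0 points) lay below group 8 (1.93 and 1.65), as did group 3 in CD4+ cells.

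**Figure D4:**
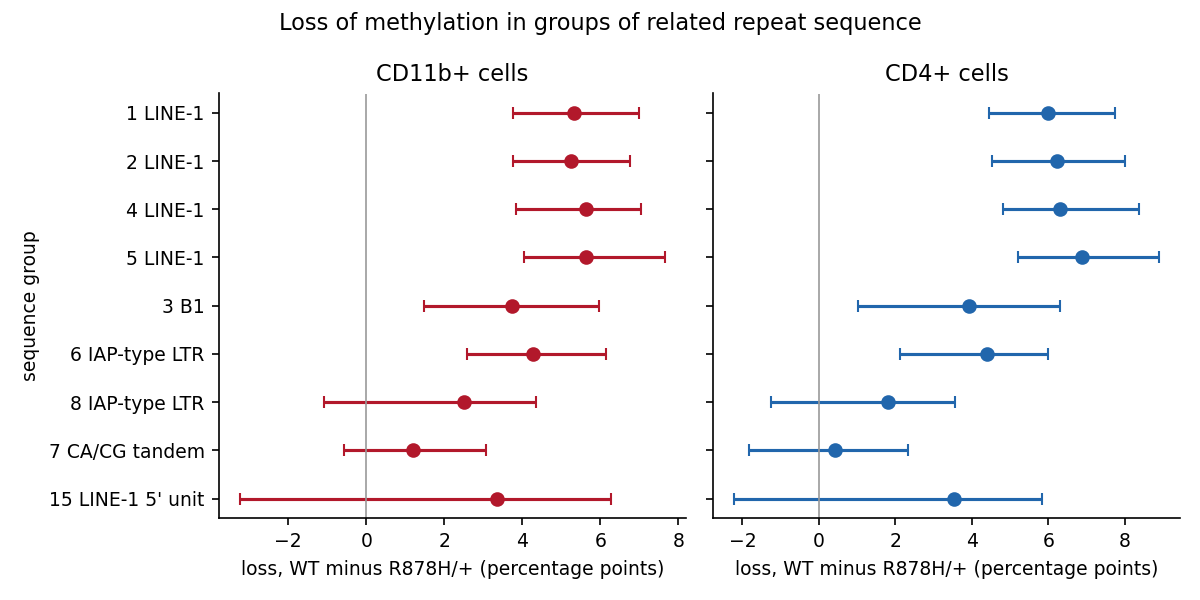
Median loss of methylation (x axis, WT minus R878H/+ in percentage points; bars are the quartiles over members) in 9 groups of related repeat sequence (y axis) in CD11b+ and CD4+ cells. Groups 1, 2, 4 and 5 lie highest of those plotted, at 5.24 to 5.63 points in CD11b+ and 5.98 to 6.88 in CD4+ cells, and the quartiles of groups 7, 8 and 15 reach below 0.

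The median loss differed little between classes of word occurrence, but single-copy members lost less. For each member the occurrences of its 31-base words in the assembled chromosomes were counted, on both strands. Members under 31 bp (282 and 395) have no such word and are left out here. They lost 0.56 and 0.20 points. Members whose median word occurred 1 or 2 times lost 4.50 points in CD11b+ and 5.45 in CD4+ cells, those with 3 to 10 occurrences 4.68 and 5.54, those with 11 to 100 occurrences 4.60 and 5.50, and those with over 100 occurrences 4.18 and 5.00. By share of words, 5258 and 8771 members were multi-copy (at least 50% of words occur again) and only 90 and 120 were single-copy (at most 10%). The single-copy members were short, with a median of 55.5 and 60 bp, and dense in CpGs. They lost 0.90 points in CD11b+ and 1.51 in CD4+ cells against 4.54 and 5.40 in multi-copy members, and within classes of WT methylation and CpG density the difference shrank from 3.64 and 3.89 to 1.52 and 1.15 points.

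Most repeat regions were intergenic. Of the CD11b+ members 4826 were intergenic, 1524 intronic and 41 exonic, and 79 lay within 1 kb of the start of a protein-coding transcript (promoter). The CD4+ members were 8257 intergenic, 2313 intronic, 52 exonic and 125 at promoters. Promoter members lost 3.48 points in CD11b+ cells (quartiles 0.90 and 7.24) and 4.81 in CD4+ cells (quartiles 1.83 and 8.15). Exonic members lost 4.00 and 4.41 points, intronic members 4.01 and 4.62, and intergenic members 4.53 and 5.44. These medians lie within each other's quartiles.

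Promoters marked the clearest contrast with repeat-poor sequence in WT level. WT methylation of promoter members was 85.3% in CD11b+ and 86.6% in CD4+ cells, whereas that of repeat-poor promoters was 57.6% and 68.6%, and these lost 6.92 and 8.22 points. Restricted to regions of at least 80% in WT, promoter members lost 3.62 and 4.60 points and repeat-poor promoters 6.42 and 6.82. Losses over 20 points were seen in 2 of 79 and 5 of 125 promoter members, a larger share (2.53% and 4.00%) than in intergenic members (0.352% and 0.242%), and in 1 exonic member of each cell type (2.44% and 1.92%). Repeat-poor regions showed the same contrast at higher shares, with 12.8% and 14.6% of promoters against 7.94% and 7.01% of intergenic regions. Beyond 500 kb from any start, members had the lowest WT methylation outside promoters (90.3% and 89.4%) and the largest median losses of the distance classes (5.10 and 5.82 points), with 1.58 and 1.36 CpGs per 100 bp. The median loss hardly varied between chromosomes, from 4.02 on chromosome 11 to 4.80 on chromosome 14 in CD11b+ cells, and from 4.97 on chromosome 5 to 5.52 on chromosome 14 in CD4+ cells.

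A promoter repeat of Ndufaf6, an assembly factor of mitochondrial complex I, lost methylation most among promoters with a member in both tables, of which there were 18. The region chr4:11076769-11076900 lies 565 bp from a start and belongs to the B1 group. Its mean was 70.1% in WT and 46.7% in R878H/+ CD11b+ cells, with 66.6% and 39.2% in CD4+ cells.
Ndufaf6 promoter repeat: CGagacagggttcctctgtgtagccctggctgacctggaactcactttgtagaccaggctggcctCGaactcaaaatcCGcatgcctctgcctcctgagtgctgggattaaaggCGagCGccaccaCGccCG
Next came Cgas, the cytosolic DNA sensor that makes cGAMP. Its promoter held a B1 copy 271 bp from a start, printed here as listed for CD4+ cells at chr9:78443508-78443636, which shared 22.8% of its words with the annotated B1 element.
Cgas promoter repeat: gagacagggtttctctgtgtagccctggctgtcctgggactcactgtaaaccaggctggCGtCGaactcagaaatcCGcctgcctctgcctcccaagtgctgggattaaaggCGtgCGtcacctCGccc
This copy was only partly methylated in WT cells. Its mean was 37.8% in WT and 21.8% in R878H/+ CD4+ cells, a loss of 16.0 points. Over the overlapping chr9:78443568-78443637 it was 32.5% in WT and 16.0% in R878H/+ CD11b+ cells, a loss of 16.4 points. Both cell types thus had a similar level and a similar loss. The promoter of Lrrc25, a leucine-rich repeat protein of myeloid cells, lost 14.3 and 12.3 points from 83.3% and 89.3%. The smaller loss was at most 5.42 points in the other promoters of the rule, Tmbim7, Olfr209, Serpina3c, Smim26, Iqce, Gm10717 and Sfi1.

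Few genes of the chosen lists held a repeat region, so the lists are given as counts beside those of all protein-coding genes. Of the 20780 protein-coding autosomal genes 6.33% held a member in CD11b+ and 8.37% in CD4+ cells, and the median loss of the members in genes was 3.98 and 4.63 points. Of 35 genes of repeat silencing, 3 held a CD11b+ member, namely Setdb1, a histone H3K9 methyltransferase (97.4% in WT, 94.0% in R878H/+), Dnmt3a itself (97.6% and 96.9%, in an intron) and Mbd2, a methyl-CpG reader (96.1% and 97.3%). In CD4+ cells only Uhrf1, which directs maintenance methylation, held one (93.8% and 83.5%). Of 388 genes with a Zfp symbol, many of which encode KRAB zinc finger proteins, 22 held 30 members in CD11b+ cells and 29 held 40 in CD4+ cells. Their median losses were 4.21 and 4.95 points. None lost over 20 points, and in all protein-coding genes only 10 of 1644 CD11b+ and 17 of 2490 CD4+ members did. The largest losses in Zfp genes were in introns of Zfp804b in CD11b+ cells (77.3% to 62.0%) and Zfp202 in CD4+ cells (86.8% to 67.2%). Zfp976 and Zfp804b came next with 11.0 and 10.9 points. At the other end, Zfp804a went from 83.4% to 92.1% and Zfp934 from 96.0% to 99.1% in CD11b+ cells, and Zfp280b from 91.7% to 95.2% and Zfp346 from 97.4% to 99.0% in CD4+ cells.

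Sensors of foreign and repeat nucleic acids held 1 CD11b+ member, that of Cgas, and 4 CD4+ members among 29 genes. The largest CD4+ loss was 26.7 points in an intron of Tbk1, the kinase that acts downstream of STING. It lay in a simple repeat of 14 bp whose mean was 92.8% in WT and 66.1% in R878H/+ cells. The 14 counted cytosines of this repeat share reads. Apobec3, a cytidine deaminase that restricts retroelements, changed from 96.2% to 95.1%, and Rnaseh2a, a subunit of the RNase that removes ribonucleotides from DNA, from 91.6% to 85.6%.

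Of 29 genes of inflammation, osteoclasts and Treg cells, 3 held a CD11b+ member and 2 a CD4+ member, and all 5 were lower in R878H/+ cells, as were 1390 of the 1644 CD11b+ and 2135 of the 2490 CD4+ members in all protein-coding genes. Cx3cr1, the fractalkine receptor of monocytes and macrophages, held a tandem repeat in an intron of which the mean was 21.6% in WT and 5.85% in R878H/+ CD11b+ cells. Each of its 10 counted cytosines lies in the 41 bp printed below (chr9:120028303-120028343), so single reads can span it whole.
Cx3cr1 intron repeat: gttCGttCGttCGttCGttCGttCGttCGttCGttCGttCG
An exonic repeat of Ocstamp, which acts in osteoclast fusion, changed from 93.3% to 82.1% in CD11b+ cells and, over a shorter stretch, from 90.7% to 87.0% in CD4+ cells. An intronic repeat of Il2ra, the CD25 chain of the IL-2 receptor, was at 88.1% in WT and 79.4% in R878H/+ CD11b+ cells, with 91.9% and 82.6% in CD4+ cells, a similar loss of 8.70 and 9.25 points. Of 21 mTOR genes, Rptor held a member in each cell type, at different places, which changed from 95.2% to 96.4% in CD11b+ and from 79.6% to 59.8% in CD4+ cells, and Rictor held 1 in CD4+ cells (98.1% to 96.5%).

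The largest losses lay at separate places in the genome. In CD11b+ cells they were in an intron of Sh3bp4 (chr1:89092724-89092742, 57.9% to 21.1%, 36.8 points), 39156 bp from the start of Tcf7l1 (67.6% to 32.5%, 35.1 points) and 2094 bp from that of Fam169a (chr13:97064862-97065192, 81.5% to 47.4%, 34.2 points). In CD4+ cells they were near Arhgef15 (chr11:68962326-68962432, 67.8% to 29.95%, 37.9 points), Il33 (chr19:29870391-29870603, 75.8% to 38.5%, 37.4 points) and Pex5 (chr6:124425306-124425540, 70.3% to 33.3%, 37.1 points). All 6 were between 57.9% and 81.5% in WT, below the median of the members. By position, the largest CD11b+ losses were 25.9 points at the promoter of Gm5294 and 32.9 in an exon of Tgfbr2, the type II TGF-beta receptor (53.8% to 20.9%), and the largest CD4+ losses were those of Ndufaf6 at promoters, 22.0 points in an exon of Ddo and 32.2 in an intron of Phldb3. The repeats in Sh3bp4, at Gm5294 and in Tgfbr2 were 19, 16 and 25 bp long, so their 10 to 12 cytosines share reads.

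No protein-coding gene had more than 2 members with a loss over 20 points. Trappc12, Bptf (the largest subunit of the NURF chromatin remodeller) and Ndufaf6 had 1 in each cell type, at one and the same place, and Ryr3 had 2 in CD4+ cells. Sh3bp4, Tgfbr2, Phldb3, Phactr2, Phkb and Acr, next by size of loss, had 1 each.

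Repeat regions listed in both tables allowed the cell types to be set side by side. There were 1105 pairs with a reciprocal overlap of at least 50%, that is 17.1% of the CD11b+ and 10.3% of the CD4+ members. WT methylation was alike, with Pearson's r = 0.86 and Spearman's rho = 0.84 across pairs, and the losses were related less closely, with r = 0.58 and rho = 0.49. These correlations are over regions, which share libraries, base composition and possibly mice, and are given as descriptions. R878H/+ cells had the lower mean in both cell types at 956 pairs (86.5%) and the higher mean in both at 26. Of all autosomal listed regions 93.5% in CD11b+ and 95.5% in CD4+ cells were lower. Pairs of all listed regions were not formed, so these counts have no background of their own. Median losses over the pairs were 5.17 points in CD11b+ and 5.58 in CD4+ cells, and the CD4+ loss was the larger one in 53.4% of pairs.

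Some large losses were seen in both cell types. Most of the 27 CD11b+ and 37 CD4+ members with a loss over 20 points were in no pair. Such a loss was seen in 10 pairs in CD11b+ and 9 in CD4+ cells, and no share of pairs was computed for all listed regions. In 5 pairs, that is 50% and 55.6% of them, it was seen in both cell types. These were the repeat near Tcf7l1, a transcription factor of the Wnt pathway (67.6% to 32.5% in CD11b+ cells, 64.4% to 32.1% in CD4+ cells), one in an intron of Trappc12, part of a vesicle tethering complex (55.0% to 25.1%, 80.7% to 49.1%), one 20192 bp from the start of Ccr2, the chemokine receptor of inflammatory monocytes (57.8% to 28.7%, 73.0% to 39.1%), one in an intron of Bptf (63.8% to 35.2%, 66.6% to 42.2%) and that of Ndufaf6. The repeats in Trappc12 and near Ccr2 were less methylated in WT CD11b+ cells than in WT CD4+ cells, and lost similar amounts in both. The pair with the largest smaller loss was the one near Tcf7l1, chr6:72828410-72828585, in group 37.
Repeat near Tcf7l1: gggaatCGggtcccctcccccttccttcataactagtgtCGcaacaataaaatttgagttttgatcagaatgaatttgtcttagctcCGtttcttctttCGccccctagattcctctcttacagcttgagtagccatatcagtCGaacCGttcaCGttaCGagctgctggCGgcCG

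**Figure D5:**
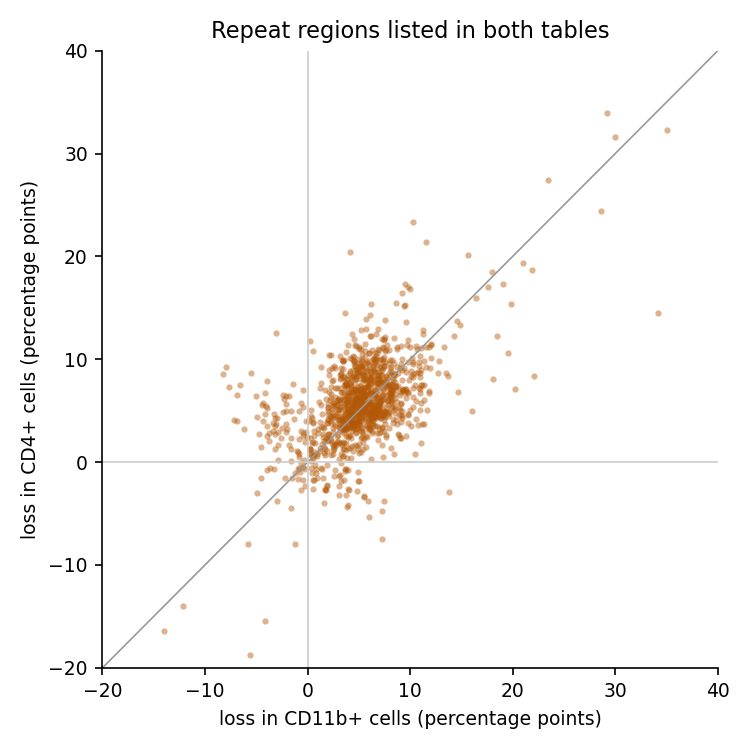
Loss of methylation (WT minus R878H/+ in percentage points) in CD11b+ cells (x axis) and CD4+ cells (y axis) at the 1105 repeat regions listed in both tables, 1 point per region, with the line of equal loss. Most points (956) lie above 0 on both axes, 5 lie beyond 20 on both, and the lowest on both axes is at -14.0 and -16.4 points.

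Gains over 10 points were rarer than the background in CD11b+ cells and near it in CD4+ cells, and several of the largest lay in a single group of related sequence. A gain over 20 points was seen in 1 CD11b+ (0.0155%) and 1 CD4+ member (0.0093%), against 0.209% and 0.00876% of all autosomal regions. A gain over 10 points was seen in 14 (0.216%) and 20 members (0.186%), against 0.609% and 0.179% of all autosomal regions. In CD11b+ cells the largest gains were near Trib2 (chr12:15377722-15377852, 60.7% to 83.6%), 2712 bp from the start of Klf2, a transcription factor of T cell quiescence (63.2% to 79.0%), and near Igbp1b (53.3% to 68.3%). In CD4+ cells they were 391060 bp from the start of Sox9 (11.1% to 38.8%), near Cdh20 (55.2% to 73.9%) and near Ripor2 (63.0% to 81.4%).

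The repeats near Trib2, Igbp1b and Cdh20 fell in a single group, group 15, as did a repeat near Rpe65 that was higher in R878H/+ cells in both cell types (58.5% to 70.6% in CD11b+ cells, 64.2% to 78.1% in CD4+ cells). This group of 148 loci was looked at after these values were seen. Its letters are those of the repeated unit at the 5′ end of LINE-1, the promoter of the element, and the founding locus (chr5:62225725-62226024) shows one unit after another.
Group 15: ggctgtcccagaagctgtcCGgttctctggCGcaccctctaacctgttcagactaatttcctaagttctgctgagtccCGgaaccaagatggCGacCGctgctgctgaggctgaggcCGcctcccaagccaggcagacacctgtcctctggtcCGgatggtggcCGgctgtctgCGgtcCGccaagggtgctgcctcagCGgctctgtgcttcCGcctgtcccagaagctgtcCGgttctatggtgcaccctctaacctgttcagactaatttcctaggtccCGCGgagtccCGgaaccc
Near Trib2: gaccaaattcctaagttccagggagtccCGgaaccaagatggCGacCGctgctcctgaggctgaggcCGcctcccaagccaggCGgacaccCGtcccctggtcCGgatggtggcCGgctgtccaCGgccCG
Group 15 held 5 of the 14 CD11b+ members and 6 of the 20 CD4+ members with a gain over 10 points. Its WT median was 92.4% in CD11b+ and 92.8% in CD4+ cells, and its median loss 3.35 and 3.53 points. The R878H/+ mean was the higher one in 41.6% of its 89 CD11b+ and 29.5% of its 78 CD4+ members. That was so in 19.4% and 20.3% of all members with 4 to 6 CpGs per 100 bp, and in 31.8% and 37.6% with 6 or more. Group 15 had a median of 6.29 and 5.93. Of its members below 80% in WT, 11 of 13 in CD11b+ and 8 of 10 in CD4+ cells were higher in R878H/+ cells. These include the gains that drew attention to the group. Of all members below 80% in WT, group 15 counted, 78 of 492 and 57 of 873 were higher. Those at 60% to 80%, the largest class among them, had a median of only 1.23 and 1.09 CpGs per 100 bp. No set of like density was compared.

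A pair of IAP-type LTR copies had low methylation in WT cells and gained methylation, and was chosen with its values in view. The copy at chr13:4942663-4943150, 333489 bp from the nearest start, had a mean of 12.9% in WT and 26.9% in R878H/+ CD11b+ cells, with 15.4% and 31.9% in CD4+ cells. It lies in group 27, whose median in WT was 95.3% and 96.4%. The copy near Sox9 (chr11:113173284-113173480) lies in group 83, with medians of 96.3% and 95.3%. Both were far below the median of their groups in WT and higher in R878H/+ cells. Low copies did not all gain, since another CD4+ member of group 83 (chr7:39655414-39655722) went from 26.4% to 9.78%, a loss of 16.6 points. The first 300 bases of the former and the whole of the latter are printed to show how CpG-rich they are.
LTR copy on chromosome 13: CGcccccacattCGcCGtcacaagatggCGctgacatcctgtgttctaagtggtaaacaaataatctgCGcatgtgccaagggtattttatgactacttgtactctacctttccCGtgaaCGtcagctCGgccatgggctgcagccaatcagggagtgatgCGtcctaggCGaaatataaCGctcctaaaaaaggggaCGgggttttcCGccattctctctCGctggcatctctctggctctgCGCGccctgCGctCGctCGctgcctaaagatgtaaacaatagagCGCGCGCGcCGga
LTR copy near Sox9: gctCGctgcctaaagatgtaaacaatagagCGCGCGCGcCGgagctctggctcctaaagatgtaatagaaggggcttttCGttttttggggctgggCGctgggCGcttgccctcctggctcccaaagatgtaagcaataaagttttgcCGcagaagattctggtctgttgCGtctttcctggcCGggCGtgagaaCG

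Members below 30% in WT cells numbered 25 in CD11b+ and 24 in CD4+ cells. They were short, with a median of 48 and 65.5 bp, and had 21.4 and 10.2 CpGs per 100 bp. Their median loss was 7.50 and 3.08 points, and the R878H/+ mean was the higher one in 8 (32%) and 9 (37.5%) of them. That was so in 6.48% and 4.47% of all autosomal regions. Of all members with 6 or more CpGs per 100 bp it was so in 31.8% and 37.6%, a similar share.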

How the data were processed

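WGBS libraries of splenic CD11b+ and CD4+ cells were made by the study with the Zymo-Seq WGBS kit and sequenced by Illumina NovaSeq. The authors mapped reads to mm10 with BISCUIT and compared the genotypes with metilene, and the submitters' notes name FastQC. The study states an overall sequencing coverage, and for its differentially methylated regions a minimum number of CpGs, a minimum difference and a false discovery rate. The tables also list regions with smaller differences. Tool versions and a coverage minimum per cytosine are not given in the sources used here. The deposited tables give per region the group means in percent, as the authors' means, and other columns hold the number of CpG cytosines and the authors' own comparisons (a q-value, a difference and 2 p-values), which were not used. Every mean over 10 cytosines was a whole multiple of 1/40 percentage point (tolerance 0.03 of that unit), so 4 values per cytosine entered each mean, also in the mutant CD11b+ group with 6 entries. Each deposited region began and ended on a CpG cytosine of mm10, whose coordinates are printed 1-based.

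Masking was read from the lower-case letters of the RefSeq mm10 sequence. CpG density, word counts (k = 31) and sequence groups (k = 16, at least 25% shared) came from the same sequence. Genes and starts were those of protein-coding transcripts in GENCODE vM21, and regions were assigned in the order promoter (1 kb to each side of a start), exon, intron and intergenic. No test was made, because the only methylation values in the tables are group means. Members and gene lists were chosen with earlier results of these data known. The text names, per cell type, the 3 members with the largest loss and the 3 with the largest gain, and the largest loss per position. Over both tables it names the 5 pairs with the largest smaller loss, the 10 genes with most losses over 20 points, the 10 promoters with the largest smaller loss in both tables, the extremes of each gene list (up to 2 at each end) and the 6 largest sequence groups. Other features were chosen after their values were seen. The procedures were tested on simulated data. Python 3.11.15, numpy 2.4.6, pandas 2.3.3, numba 0.67.0, scipy 1.17.1, matplotlib 3.10.9 and dustmasker 1.0.0 were used. No column of single samples was left out.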

Additional observations from a re-analysis of the deposited data

How the results depend on the processing

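No paired analysis was possible because the only methylation values are the means of each genotype, and for the same reason no mouse could be left out in turn. Of 78 values recomputed under other choices, 20 stayed within a limit of the reported ones, 56 differed by more, and 2 changed sign. For a median the limit was the mean distance between the ends of its 95% interval over regions and their midpoint. For a difference, those of both medians were combined, and a count could differ by up to 1.5 times. The interval narrows with the number of regions, which are not replicates, so the limit does not measure variation between mice. Values below are for CD11b+ and then CD4+ cells, and losses and differences are in percentage points. The cause of these shifts was not tested. The depth behind each region's mean is not in the tables, and most members hold only 10 cytosines.

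With every base masked, the median loss was 3.76 and 4.65, the difference from repeat-poor regions -2.99 and -2.35, the loss of CpG-dense members 2.23 and 1.80, and 15 and 18 members lost over 20 points. With at least 50% masked, these were 5.15 and 5.73, -1.60 and -1.28, 2.80 and 2.64, and 485 and 667 among 29533 and 44943 regions. Promoter regions then lost 7.06 and 7.70, and multi-copy minus single-copy regions changed sign, to -0.904 and -0.604, with 5488 and 7947 single-copy regions. Single-copy members alone lost 0.90 and 1.51, differed from repeat-poor regions by -5.85 and -5.49, and 1 and 2 of them lost over 20 points. Those at promoters (4 and 1) lost 1.66 and 11.4, and CpG-dense ones 0.613 and 1.23. Only 13 and 52 members had more than 20 cytosines, and they differed from repeat-poor regions of that size by -6.92 and -5.00, with 0 and 1 losing over 20 points and CpG-dense ones (4 and 8) losing 4.14 and 2.86.

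Losses over 10 points were seen in 317 and 874 members, and over 30 points in 5 and 7. Weighted by cytosines, the difference from repeat-poor regions was -2.45 and -1.85, and against regions with no masked base it was -1.80 and -1.10. Within classes of WT methylation and CpG density it was -1.50 and -1.29, and multi-copy minus single-copy was 1.52 and 1.15. From 6 CpGs per 100 bp, dense members lost 1.70 and 1.23. A pair of further choices was made after seeing the data. Without low-complexity members the median loss was 4.55 and 5.39 and that of CpG-dense members 2.83 and 2.65, and without members under 31 bp these were 4.52 and 5.38, and 2.80 and 2.75.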
